A study of Sus scrofa with 9 samples.

Results

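Integrins are the receptors through which cells hold and sense the extracellular matrix. The genes described here encode 10 integrin subunits for matrix adhesion, ITGA1, ITGA2, ITGA3, ITGA5, ITGA6, ITGA8, ITGA11, ITGAV, ITGB1 and ITGB3, and were taken by symbol from the 19535 gene rows of the table. They were chosen by their measured values in these same samples, around the question of which subunits switch together with ITGA2, so their levels and fold changes are given as a description without a test. All 10 passed the filter on low counts, which left 13662 genes.

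The cells were porcine aortic valvular interstitial cells (PVICs), the fibroblast-like cells that maintain the valve leaflet, isolated from wild-type pigs aged 4 to 5 months. The control group was kept in DMEM. The OIM group received osteogenic induction medium, which contains 2 mmol/L phosphate, 50 µg/mL ascorbic acid and insulin, and the bFGF group received the same medium with 50 ng/mL basic fibroblast growth factor. Each group had 3 libraries, and the sample labels give 3 days of treatment whereas the methods of the study give a shorter time. The cells had been passaged in culture, neither source says how many animals they came from, and spread between libraries may therefore be technical.

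A working integrin is a pair of one alpha and one beta subunit, and the pairing sets which matrix protein is held. The subunits α1, α2, α10 and α11 pair with β1 and bind collagen through an extra inserted domain. The subunits α3, α6 and α7 bind laminin in basement membrane, and α6 can also pair with β4. The subunits α5, α8, αV and αIIb recognise the Arg-Gly-Asp (RGD) motif of fibronectin and related proteins, with αV taking several beta partners, β3 among them. Talin and kindlin bind the tail of the beta subunit from inside and switch the receptor on. In fibroblasts and interstitial cells these receptors join the collagen-rich matrix to the actin cytoskeleton.

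The collagen-binding alpha subunits share a metal-binding site in the inserted domain, the place where collagen is held. The coding bases of this site are shown because the change of ITGA2 against ITGA1 and ITGA11 is a change within this family, whose members can be told apart by their sequence. Each stretch is 27 bases long, lies in exon 6 of its gene, and comes from the RefSeq annotation of Sscrofa11.1. Capitals mark the 5 codons of the Asp-x-Ser-x-Ser metal-site motif.
ITGA2 (chr16:32382657-32382683, plus strand): gtatgtGATGAATCAAACAGTatttat
ITGA1 (chr16:32206555-32206581, plus strand): gtgctgGATGGTTCCAACAGTatctac
ITGA10 (chr4:99426625-99426651, plus strand): gtcttgGATGGCTCCAACAGCatctac
ITGA11 (chr1:166240342-166240368, minus strand): gtcctgGATGGCTCCAATAGCatctac
ITGA10 and ITGA11 share 25 of the 27 bases, and ITGA1 shares 23 with each of them. ITGA2 stands further off, with 18 bases shared with ITGA1, 18 with ITGA10 and 16 with ITGA11.

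The summed gene counts ran from 57075793 to 64723837 in the control libraries, from 57682710 to 67371523 in the OIM libraries and from 46773376 to 48270827 in the bFGF libraries. No member had fewer than 490 counts in any library, and the highest count was 195536. All 10 interstitial cell markers were above 3 counts in every library, and their sum fell from 61454 to 64359 CPM in OIM to 37598 to 37952 CPM with bFGF. In this list COL1A1, COL1A2, COL3A1 and DCN were called lower with bFGF, VIM and S100A4 were called higher, with VIM at 5694 CPM in OIM and 9008 CPM with bFGF, and the remaining 4 were not called. The COL3A1 call was lost with library totals alone, where its log2 fold change went from -0.72 to -0.5 after rounding. CPM is the count relative to the library total after TMM scaling. Of 10 endothelial markers, 8 were above 3 counts in every library, and their sum was 88.4 to 90.2 CPM in OIM and 171 to 180 CPM with bFGF, most of it from ERG. ERG, PECAM1, CDH5, KDR, TEK, EMCN and CLDN5 were called higher with bFGF than in OIM, 7 of the 10, and VWF, TIE1 and ESAM were not called. In this comparison 17.7% of all genes tested were called higher and 18.4% lower. PECAM1 was 11.8 CPM in OIM and 20.7 CPM with bFGF, and CDH5 5.80 and 8.24 CPM. KDR and CLDN5 were low, at 0.169 and 1.17 CPM and at 0.0601 and 0.336 CPM. VWF lay at 0.105 to 0.586 CPM over all libraries. The 10 leukocyte markers summed to 17.7 to 19.2 CPM in OIM and 9.78 to 11.6 CPM with bFGF, with 6 above 3 counts in every library, CD3E at 0 throughout and CD14, CD163 and ITGB2 called lower with bFGF. The part of these shifts in the integrin levels was not tested. The 7 epithelial markers in the table were all at or near 0, with KRT5 at 0 in every library. In bulk RNA, more cells of a type and more RNA per cell cannot be told apart.

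One library stood apart. OIM replicate 2 lay nearer to the bFGF group than both other OIM libraries for 9 of the 10 members, the exception being ITGA6, and for 64.5% of the 4939 genes called between bFGF and OIM. The same library had a lower level of the contractile genes, with ACTA2 at 6851 CPM against 9209 and 9285 CPM in the other OIM libraries. Values that rest on it are given with and without it below.

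Addition of bFGF to OIM went with a division of the subunits. ITGA2, ITGB3, ITGA6 and ITGA3 were higher in every bFGF library than in any other library, and ITGA8, ITGA11, ITGA1, ITGAV, ITGB1 and ITGA5 were lower in every bFGF library than in any other. By the call used for all genes, which needs an adjusted p no larger than 0.05 and a log2 fold change of 0.5 or more in size, 4 members were called higher and 5 lower between bFGF and OIM, and ITGA5 was not called. Over all genes tested, 17.7% were called higher and 18.4% lower in this comparison, and 27.3% and 12.4% with library totals alone. Because the members were selected on this contrast, nothing is read from the counts. The median log2 fold change of the 10 was -0.58, beside -0.003 for all genes.

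**Figure D1:**
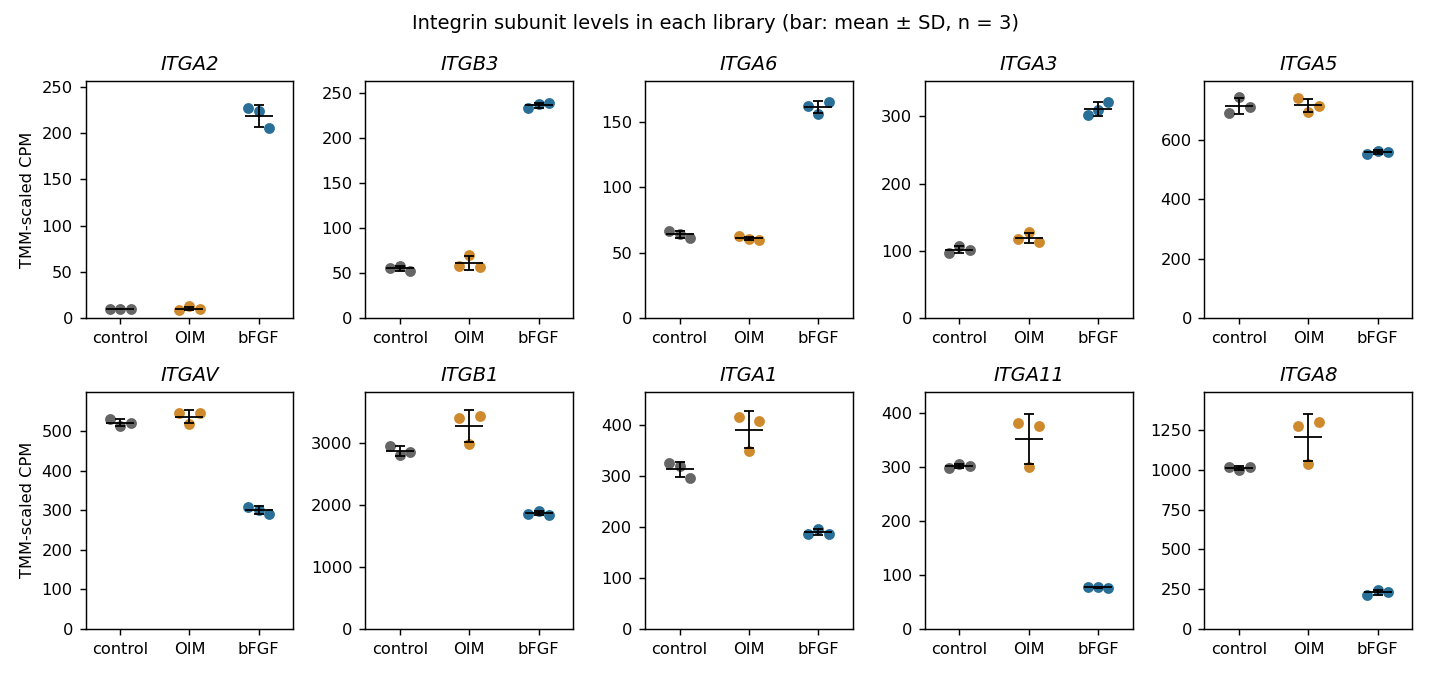
Level of each of the 10 integrin subunits (TMM-scaled CPM, linear axis from 0) in the 9 libraries, with 1 point per library and the mean ± SD of 3 libraries as a bar. The bFGF points of ITGA2, ITGB3, ITGA6 and ITGA3 lie above all others, those of the remaining 6 lie below all others, and the lowest OIM point of ITGA1, ITGA8, ITGA11 and ITGB1 is OIM replicate 2.

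ITGA2 encodes α2, a collagen receptor best known from platelets and epithelia. Its level was 9.82, 10.0 and 10.3 CPM in the control libraries, 9.04, 12.7 and 9.52 CPM in the OIM libraries and 227, 224 and 205 CPM in the bFGF libraries. The bFGF group stood far above both others, which overlapped each other. The mean of 219 ± 12 CPM (SD, n = 3) with bFGF was 20.9-fold that of OIM, a log2 fold change of 4.39 (SE 0.084). Between OIM and control the log2 difference was 0.06 (SE 0.0924), and without OIM replicate 2 it was -0.11.

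The other collagen receptor subunits of the list went the opposite way. ITGA11 encodes α11, the collagen receptor of mesenchymal cells and myofibroblasts, and measured 298, 306 and 302 CPM in control, 382, 300 and 377 CPM in OIM and 77.1, 78.4 and 75.9 CPM with bFGF. Its bFGF level was 4.57-fold lower than in OIM (log2 fold change -2.19, SE 0.0651). ITGA1 encodes α1, which prefers basement membrane collagen. It measured 324, 318 and 295 CPM in control, 414, 348 and 407 CPM in OIM and 186, 196 and 185 CPM with bFGF, a log2 fold change of -1.04 (SE 0.0537) from OIM. For both genes the 3 bFGF values lay below all others. OIM replicate 2 lay within the control range for ITGA11, and every OIM value of ITGA1 was above the control range.

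The laminin receptor subunits ITGA3 and ITGA6 were also higher with bFGF, by a smaller factor than ITGA2. ITGA3 was 96.4, 107 and 102 CPM in control, 117, 128 and 113 CPM in OIM and 301, 309 and 321 CPM with bFGF, a 2.61-fold difference from OIM (log2 1.39, SE 0.0477). ITGA6, which forms the laminin receptor of epithelial basal cells when paired with β4, was 66.3, 64.2 and 61.5 CPM in control, 62.5, 60.6 and 59.6 CPM in OIM and 162, 156 and 165 CPM with bFGF. This was a 2.65-fold difference (log2 1.40, SE 0.0424). All OIM values of ITGA3 lay above the control values, and those of ITGA6 overlapped them.

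No RGD-binding alpha subunit of the list was higher with bFGF. ITGA8, which pairs with β1 and is known from smooth muscle and other contractile mesenchyme, had the largest difference among the members lower with bFGF. It measured 1018, 997 and 1017 CPM in control, 1278, 1036 and 1298 CPM in OIM and 215, 242 and 229.7 CPM with bFGF. The bFGF level was 5.27-fold lower than in OIM (log2 fold change -2.40, SE 0.0639). ITGAV, the αV partner of β1, β3, β5, β6 and β8, was 531, 513 and 519.6 CPM in control, 545, 518 and 546 CPM in OIM and 309, 301 and 291 CPM with bFGF, a log2 fold change of -0.84 (SE 0.0355). ITGA5, the main fibronectin receptor subunit, was 689, 742 and 708 CPM in control, 739, 693 and 712 CPM in OIM and 550, 563 and 559 CPM with bFGF. Its groups did not overlap between bFGF and OIM either, but the log2 fold change of -0.36 (SE 0.0357) stayed inside the fold limit.

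The beta subunits of the list also parted. ITGB1, the common partner of most alpha subunits described here, was 2951, 2796 and 2856 CPM in control, 3402, 2979 and 3423 CPM in OIM and 1849.5, 1900.3 and 1841 CPM with bFGF, a log2 fold change of -0.81 (SE 0.0431). ITGB3, the partner of αV in the vitronectin receptor, was 55.1, 58.3 and 52.6 CPM in control, 57.4, 69.6 and 56.5 CPM in OIM and 233, 237 and 238 CPM with bFGF. The ITGB3 level with bFGF was 3.86-fold that of OIM (log2 1.95, SE 0.0612). The gene of αV thus stood lower, and that of its partner β3 higher, in the same libraries.

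All 8 contractile markers were called lower between bFGF and OIM, beside 18.4% of all genes. Their sum was 9906 to 10419 CPM in control, 10168 to 13456 CPM in OIM and 1637 to 1820.5 CPM with bFGF. Most of it came from ACTA2 and TAGLN (8448 and 2925 CPM in OIM), and 7 of the 8 were above 3 counts in every library. MYH11 (log2 1.13) and DES (3.33) were called higher between OIM and control, where no member was called. Between bFGF and control MYOCD had a log2 fold change of -0.04. MYH11, the smooth muscle myosin heavy chain, was 325, 182 and 337 CPM in the OIM libraries, so OIM replicate 2 was the lowest there as it was for ITGA8, ITGA11, ITGA1 and ITGB1. The part of this contractile shift in the levels of the integrin genes was not tested.

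OIM alone moved the members little. None of the 10 was called higher or lower between OIM and control, where 1.49% of all genes were called higher and 0.864% lower, and the median log2 fold change was 0.17. DESeq2 called 0 as well, and no member reached the fold limit, so none would be called at any p. The values were 0.32 (SE 0.0529) for ITGA1, 0.25 (SE 0.0603) for ITGA8, 0.23 (SE 0.0478) for ITGA3, 0.22 (SE 0.0612) for ITGA11, 0.19 (SE 0.0428) for ITGB1 and 0.15 (SE 0.0615) for ITGB3. ITGAV, ITGA5 and ITGA6 lay between -0.07 and 0.04. With the fold limit dropped, 5 members were called higher, as were 7.69% of all genes. Without OIM replicate 2 the log2 difference was 0.40 for ITGA1, 0.35 for ITGA8, 0.33 for ITGA11 and 0.25 for ITGB1, and it was 0.04 for ITGB3 and 0.17 for ITGA3. Leaving this library out therefore widened the OIM difference for ITGA1, ITGA8, ITGA11 and ITGB1 and narrowed it for ITGB3 and ITGA3. The differences between bFGF and OIM without it were 4.58 for ITGA2, 2.07 for ITGB3, -2.48 for ITGA8, -2.28 for ITGA11 and -1.10 for ITGA1.

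Between bFGF and control, 4 members were again called higher and 5 lower, with a median of -0.49, beside 18.9% of all genes called higher and 20.0% lower (28.8% and 13.5% with library totals alone). This comparison shares its bFGF libraries with the one above, and the comparison of bFGF with OIM shares its OIM libraries with that of OIM with control. The log2 fold changes from control were 4.44 for ITGA2, 2.09 for ITGB3, 1.61 for ITGA3, 1.33 for ITGA6, -2.14 for ITGA8, -1.97 for ITGA11, -0.80 for ITGAV, -0.72 for ITGA1, -0.62 for ITGB1 and -0.36 for ITGA5. Scaling by library totals alone left every member's direction in place but raised the bFGF log2 fold changes of all genes by 0.22, and 3 members were then called lower than control, with ITGA1 and ITGB1 no longer among them.

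To compare levels between genes, CPM was divided by the length of the longest annotated transcript in kilobases. On this scale ITGB1 came first in every group, at 444 ± 12.1 in control, 506 ± 38.8 in OIM and 289 ± 4.98 CPM per kilobase with bFGF (SD, n = 3). In control ITGA8 and ITGA5 followed, both at 159 with overlapping libraries, then ITGAV at 73.2, ITGA11 at 58.0, ITGA1 at 30.0, ITGA3 at 22.1, ITGB3 at 12.1, ITGA6 at 11.4 and ITGA2 last at 0.939 CPM per kilobase. ITGB3 and ITGA6 overlapped. The order was the same in OIM, where ITGA8 and ITGA5 overlapped, as did ITGAV and ITGA11.

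With bFGF the order was another one. ITGA5 was second at 124 CPM per kilobase, then came ITGA3 at 67.6, ITGB3 at 51.8, ITGAV at 42.2, ITGA8 at 36.0, ITGA6 at 28.7, ITGA2 at 20.5, ITGA1 at 18.2 and ITGA11 last at 14.8. No neighbours in this order overlapped. By coding length instead, ITGA1 stood above ITGA11 in control and OIM, ITGB3 and ITGA3 overlapped with bFGF (98.9 to 101 and 96.8 to 103 CPM per coding kilobase), and ITGA2 with 61.0 CPM per coding kilobase above ITGA1 and ITGA6.

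The make-up of each ligand class shows the switch as shares of length-scaled level. Among the collagen-binding alpha subunits, ITGA2 held 1.03% ± 0.0405 in control, 0.915% ± 0.288 in OIM and 34.1% ± 0.948 with bFGF (SD, n = 3). ITGA11 held 63.7%, 62.1% and 24.7% in the same groups, and ITGA1 33.0%, 34.5% and 30.3%. ITGA10, which is no member of the list, held 2.22%, 2.52% and 10.8%. The class as a whole came to 90.9, 109 and 59.9 CPM per kilobase, so its total was lower with bFGF while the share of ITGA2 was higher. The lengths matter here. By coding length the total was 172, 208 and 146 CPM per kilobase, a smaller difference between control and bFGF, and ITGA1 rather than ITGA11 held the largest share in control, at 51.4% against 44.8%, and ITGA2 held 41.7% with bFGF.

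Among the laminin-binding subunits, ITGA3 held 60.3% in control, 59.1% in OIM and 69.9% with bFGF, and ITGA6 held 31.1%, 24.8% and 29.7%. ITGA7 made up the remainder, 8.65%, 16.1% and 0.426%. The class total was 36.7, 43.8 and 96.7 CPM per kilobase. Of the 4 class totals, this was the one that was higher with bFGF than in control and OIM.

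Among the RGD-binding subunits ITGA8 and ITGA5 each held 40.6% in control by transcript length. In OIM they held 44.5% and 37.6%, and with bFGF 17.7% and 61.3%. ITGAV held 18.7%, 17.7% and 20.8%, and ITGA2B held 0.0955%, 0.135% and 0.246%. The class total was 392, 425 and 203 CPM per kilobase, and ITGA5 held the largest share with bFGF. By coding length ITGA8 and ITGA5 held 44.8% and 31.8% in control, 48.7% and 29.2% in OIM and 20.9% and 51.2% with bFGF.

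The beta class was summed over ITGB1, ITGB3, ITGB5, ITGB6 and ITGB8. ITGB2, ITGB4 and ITGB7 were left out of it, with ITGB4 at 22.2 CPM with bFGF beside 12.1 CPM for ITGB8. In this class ITGB1 held 79.1%, 80.3% and 65.5% and ITGB3 2.16%, 2.14% and 11.7% in control, OIM and bFGF. ITGB5 held 18.2%, 17.2% and 22.4%. By coding length ITGB5 held 9.17%, 8.63% and 11.9%, ITGB1 88.4%, 89.1% and 77.5% and ITGB3 1.75%, 1.73% and 10.1%. The alpha subunits that can pair with β1 summed to 1.17 ± 0.0422 times the ITGB1 level in control, 1.14 ± 0.00978 times in OIM and 1.25 ± 0.0156 times with bFGF. The bFGF ratios, from 1.24 to 1.27, lay above the OIM ratios, from 1.13 to 1.15. By coding length the ratio was below 1, at 0.792 in control, 0.777 in OIM and 0.838 with bFGF, and the bFGF values were again above those of OIM.

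Integrin subunits outside the list were tested on the same fit with edgeR's quasi-likelihood test and Benjamini-Hochberg adjustment over all genes. Of 16 listed, 15 were in the table and 12 passed the filter on low counts. Between bFGF and OIM 3 rose and 4 fell, beside 17.7% of all genes called higher and 18.4% lower. The median log2 fold change of the 12 was -0.24. ITGB4, the β4 partner of α6, rose from 6.66, 7.15 and 6.13 CPM in OIM to 21.3, 23.8 and 21.5 CPM with bFGF (log2 1.74, SE 0.0917, edgeR adjusted p = 1.34e-12). It had also risen from control to OIM (log2 0.63, adjusted p = 1.91e-04). ITGB4 and ITGA6, whose products form a laminin receptor together, both stood higher with bFGF. ITGA10, the remaining collagen-binding subunit, rose from 15.3, 19.0 and 18.9 CPM in OIM to 44.0, 41.7 and 41.3 CPM (log2 1.26, edgeR adjusted p = 9.29e-12), on the side of ITGA2. ITGA4, a receptor for fibronectin and VCAM1, rose with a log2 fold change of 1.05 (edgeR adjusted p = 7.57e-09).

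ITGA7, the laminin receptor of muscle, fell the most of all integrin genes tested. It was 12.9, 15.8 and 13.0 CPM in control, 34.4, 20.7 and 37.8 CPM in OIM and 1.44, 1.54 and 2.46 CPM with bFGF. The fall from OIM was 17.1-fold (log2 -4.09, SE 0.209, edgeR adjusted p = 8.09e-13), and the rise from control to OIM was 1.15 on the log2 scale (edgeR adjusted p = 6.83e-05). OIM replicate 2 was again the lowest of its group, and without it the rise from control was 1.38. ITGB8 (log2 -0.76), ITGB2 (-0.89) and ITGAL (-0.58) fell as well, with edgeR adjusted p = 4.23e-08, 0.00335 and 6.76e-07. ITGAL was not called with library totals alone. ITGB2 and ITGAL are integrins of leukocytes. The ITGAL level was 29.0 CPM in OIM and 19.4 CPM with bFGF, and that of ITGB2 was 2.36 and 1.27 CPM. Of the 7 leukocyte markers tested 3 were called lower (CD14, CD163 and ITGB2 itself), beside 18.4% of all genes. PTPRC, at 0.442 and 0.274 CPM, was not called. Whether these falls belong together was not tested. ITGB5, a partner of αV, was 315, 319.8 and 305 CPM in OIM and 289, 299 and 270 CPM with bFGF, and its log2 fold change of -0.13 was inside the fold limit and turned positive with library totals alone. ITGA9 (-0.41), ITGAE (-0.30), ITGA2B (-0.18) and ITGB7 (0.45) were not called, and the sign for ITGA2B also depended on the scaling.

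**Figure D2:**
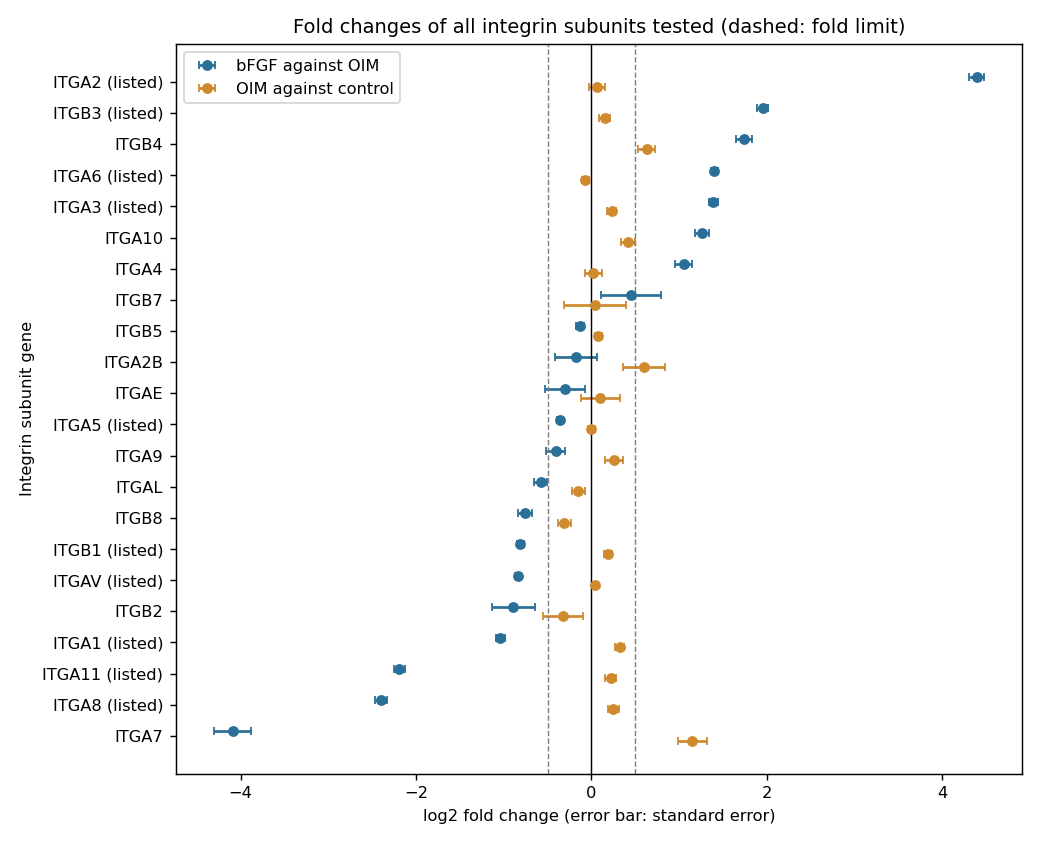
Log2 fold change with its standard error for the 10 listed and 12 other integrin subunit genes tested, bFGF against OIM in blue and OIM against control in orange. Dashed lines mark the fold limit of 0.5 and "listed" marks the 10 subunits chosen for description. ITGA2 is at one end with 4.39 and ITGA7 at the other with -4.09, and the OIM changes lie between -0.33 and 1.15.

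Of 38 matrix ligands of integrins, 36 were tested, and 9 rose and 17 fell between bFGF and OIM (median log2 fold change -0.46). The shares called over all genes tested were 17.7% higher and 18.4% lower. With library totals alone the ligand counts were 13 and 14, beside 27.3% and 12.4% of all genes. NID1 and NID2, the nidogens that join laminin to collagen IV, rose by 1.59 and 1.48 on the log2 scale (edgeR adjusted p = 1.36e-16 and 6.17e-17), and the laminin chain LAMA1 and FRAS1, a protein of embryonic basement membranes, rose by 2.17 and 1.72 (edgeR adjusted p = 1.69e-08 and 8.22e-12). LAMA1 remained low, at 5.0 to 7.66 CPM, and other laminin and collagen IV chains fell. LAMA4 went from 859 to 513 CPM (log2 -0.74, edgeR adjusted p = 4.59e-13), LAMB2 from 261 to 121 CPM (-1.11, edgeR adjusted p = 5.2e-14), and LAMA3 (-1.17) and COL4A2 (-1.26) were called lower too. POSTN, the gene of periostin, which binds αV integrins, rose from 571, 651 and 577 CPM to 1680.3, 1633 and 1621 CPM (edgeR adjusted p = 4.02e-16).

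The ligands that fell included several that bind αV integrins. CYR61 and CTGF, matricellular proteins, fell by 2.35 and 1.79 on the log2 scale, THBS1 (thrombospondin 1) by 2.04 and SPP1 (osteopontin) by 1.86, with edgeR adjusted p = 5.13e-19, 1.96e-17, 8.22e-19 and 7.76e-15. THBS1 was 32958, 29162 and 31599 CPM in OIM and 7291, 7903 and 7586 CPM with bFGF. COL4A1, a chain of basement membrane collagen, fell by 1.57 (edgeR adjusted p = 7.46e-15). FN1, the fibronectin held by α5, fell by 0.58 (edgeR adjusted p = 1.82e-12), a call lost with library totals alone, where its log2 fold change was -0.36. Between OIM and control only FRAS1 of the 36 was called (log2 0.62, edgeR adjusted p = 6.32e-04), beside 1.49% of all genes called higher and 0.864% lower.

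Of 30 activators, linkers and membrane partners, 28 were tested, and 3 rose and 8 fell between bFGF and OIM (median -0.25). Among all genes tested, 17.7% were called higher and 18.4% lower. With library totals alone the counts were 4 and 6, beside 27.3% and 12.4% of all genes. The kindlins bind beta tails. FERMT1, the kindlin of epithelia, rose from 2.93, 4.36 and 2.24 CPM to 14.4, 11 and 16 CPM (log2 2.11, edgeR adjusted p = 2.99e-09), and FERMT2, the kindlin of mesenchymal cells, fell from 420.2, 367 and 436 CPM to 188, 188 and 183 CPM (log2 -1.13, edgeR adjusted p = 3.61e-13). FERMT3, the kindlin of blood cells, had a log2 fold change of 0.47 and was not called against OIM, but was called with library totals alone. LIMS2, an adaptor of the integrin-linked kinase complex, fell by 2.92 (edgeR adjusted p = 3.57e-16), whereas its relative LIMS1 had a log2 fold change of -0.01. DAB2, an adaptor for integrin endocytosis, fell by 1.79, FLNA, the actin crosslinker filamin A, by 0.95 and the tetraspanin CD9 by 0.81, with edgeR adjusted p = 1.35e-18, 1.5e-13 and 4.12e-11. PARVB and PXN, parvin beta and paxillin, rose by 1.20 and 0.76 (edgeR adjusted p = 4.76e-07 and 3.18e-11). Between OIM and control only CAV1, the gene of caveolin 1, was called, with a log2 fold change of -0.59 (edgeR adjusted p = 3.69e-09). In that comparison 1.49% of all genes were called higher and 0.864% lower.

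**Figure D3:**
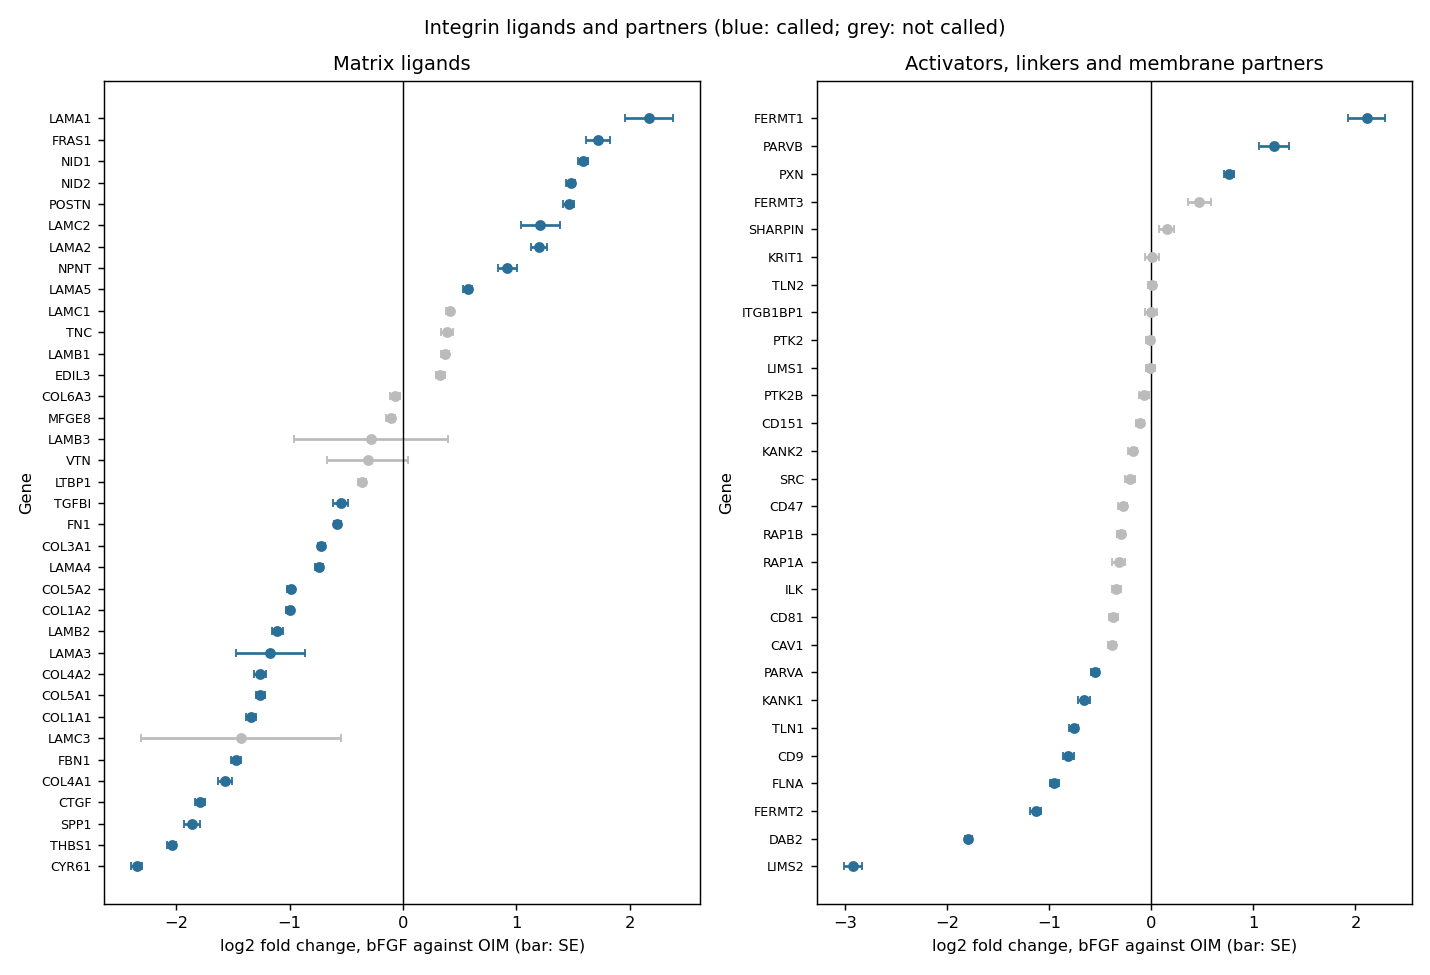
Log2 fold change of bFGF against OIM with its standard error for 36 matrix ligands (left) and 28 activators, linkers and membrane partners (right) of integrins, in blue where called and in grey where not. The right panel runs from 2.11 for FERMT1 to -2.92 for LIMS2, and the left from 2.17 for LAMA1 to -2.35 for CYR61.

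The profile of ITGA2 over the 9 libraries was compared with that of every gene tested, by the root mean square distance of log2 CPM centred on each gene's mean. The nearest genes that were no members were NEBL, FAM198B, ESM1, EMB and KCNK12, at distances of 0.135, 0.139, 0.178, 0.185 and 0.206. FAM198B was 13.1, 16.6 and 12.3 CPM in OIM and 242, 244 and 259 CPM with bFGF. ESM1, the proteoglycan endocan, was 11.5, 24.7 and 12.9 CPM in OIM and 333, 337 and 343 CPM with bFGF. OIM replicate 2 was the highest OIM library for all 5 genes, as it was for ITGA2 in the profile that chose them. The nearest of the members was ITGB3, at 1.13, with 279th place among all genes, since its range was smaller. As a description over 9 libraries that fall into groups, Pearson's r with ITGA2 was 0.997 for ITGB3, 0.994 for ITGA6 and 0.990 for ITGA3, and from -0.996 to -0.945 for the 6 members lower with bFGF.

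In the annotation of Sscrofa11.1 the genes of α1 and α2 are neighbours on the plus strand of chromosome 16. ITGA1 extends from 32130265 to 32309917 and ITGA2 from 32336240 to 32440311, with 26322 bases between them. They differed from OIM in opposite directions, by -1.04 and 4.39 on the log2 scale. PELO, a gene for ribosome rescue, starts 11 bases before ITGA1 on the same strand and overlaps it, and its log2 fold change from OIM was -0.23 (edgeR adjusted p = 2.47e-04), inside the fold limit. MOCS2, a gene of molybdenum cofactor synthesis, overlaps the last 12529 bases of ITGA2 on the other strand and was 42.8, 42.1 and 45.5 CPM in OIM and 45.0, 46.4 and 46.1 CPM with bFGF (log2 0.08, edgeR adjusted p = 0.188). How reads in such overlaps were assigned is not given in the sources used here, so reads of ITGA1 and PELO, or of ITGA2 and MOCS2 if strand was not used, could have been counted for either gene.

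The other members lie apart from each other, on chromosomes 1, 5, 10, 12 and 15. ITGA6 (78504108 to 78591779) and ITGAV (91604666 to 91711843) are both on chromosome 15, and ITGA3 (26234769 to 26269327) and ITGB3 (16694466 to 16752228) on chromosome 12. ITGA8 (46132887 to 46303659) and ITGB1 (56078393 to 56130608) are on chromosome 10, ITGA5 (19587361 to 19610580) on chromosome 5 and ITGA11 (166186601 to 166311046) on chromosome 1.

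The 200 bases before the annotated start of each member were searched on both strands for AP-1 (TGANTCA), GC box (GGGCGG), ETS (CCGGAAG), TEAD (GGAATG), RUNX (TGTGGT) and CArG box letters. A GC box was present in 9 of 10 members, ITGAV being the exception, and in 42.4% of the 20652 windows of the same length before the annotated starts of protein-coding genes. The member windows held 56.0% to 79.5% G and C bases, beside a median of 58.5% over all windows, and were not matched for this. The box before ITGA1 also lies before PELO. GC boxes were found before members that rose and members that fell alike, as these stretches of 30 bases show, in which capitals mark the box.
ITGA2 (chr16:32336194-32336223, plus strand): ctcgctGGGCGGcgGGGCGGggccggggca
ITGB3 (chr12:16752308-16752337, minus strand): caagtccacggcCCGCCCcgttgcgtccca
ITGA8 (chr10:46132760-46132789, plus strand): ctctggcgcctgGGGCGGgccaccagcggg
ITGA11 (chr1:166311047-166311076, minus strand): acagactctgaatctggGGGCGGtggtgtg
The ITGA2 boxes begin 40 and 32 bases before its start. ETS letters were in the windows of ITGA6 and ITGB1 (6.8% of all windows) and TEAD letters in that of ITGB1 (8.1%). The letters of AP-1 (4.4%), RUNX (11.8%) and the CArG box (1.0%) were in 0 of the 10 windows.

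Circular RNAs within the members were few. The table held 10 of them, 5 in ITGA8, 3 in ITGB1 and 2 in ITGAV, with 36 counts in control, 20 in OIM and 13 with bFGF over all, and at most 7 counts in a library. At this depth no difference between groups can be read from them. Non-coding transcripts of the other strand at or beside a member had at most 16.4 estimated counts in a library.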

How the data were processed

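RNA from PVICs in 3 groups (control, OIM, OIM with bFGF) was sequenced, with 3 libraries per group and groups taken from the sample labels. The authors deposited raw whole-number counts for 19535 genes and 6179 circular RNAs and estimated counts (expected counts) for 9888 non-coding transcripts in one table, of which 19 further columns had neither name nor value. The methods of the study name Cutadapt, STAR and susScr11 with poly-A selection, whereas the submitters' processing notes name Trimmomatic, HISAT2, StringTie and Sscrofa11.1 and the labels a stranded total RNA kit with ribosomal RNA removal. The program that counted reads is not given in the sources used here. A total RNA library also holds unspliced RNA, so levels may differ in meaning between the kits.

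The test across genes was that of edgeR 4.0.16, run in R 4.3.3 (filterByExpr, TMM, quasi-likelihood fit of all 9 libraries, 6 residual degrees of freedom), with Benjamini-Hochberg adjustment over 13662 genes. The common biological coefficient of variation was 0.0602. The limits of a call were those of the study, 0.05 for the adjusted p and 0.5 for the size of the log2 fold change. TMM factors were 0.937 to 0.967 in control and OIM and 1.10 to 1.11 with bFGF. Levels between genes were CPM per kilobase of the longest RefSeq transcript. Centred profiles were made from log2 CPM (prior count 2), and the fit was tested on simulated data.

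The members and all lists were chosen with earlier results of these data known. Named were all members, all other integrin genes tested, the 5 called ligands and linkers with the largest change in each direction (no overlap of libraries, mean of at least 10 counts), those called between OIM and control, and the 5 genes nearest to ITGA2. FN1, LIMS1, FERMT3, LAMA3, LAMA4, LAMB2 and COL4A2 were named after their values were seen. Same-numbered libraries did not deviate together (9 pairs, r from -0.032 to 0.0035), so numbers were not taken as pairs. P-values measure the spread between these libraries. Alternatives were DESeq2 1.42.0, other scalings, filters, fits and lengths, no fold limit, a replicate block and leaving out each library.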

Additional observations from a re-analysis of the deposited data

How the results depend on the processing

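With DESeq2, median-of-ratios size factors, other filters on low counts and fits on only the groups compared, the members called were as many as given, and of 480 recomputed member log2 fold changes 458 moved by less than 1 SD. No called difference of a member changed sign. Between OIM and control, where no member was called, leaving out OIM replicate 2 took ITGA2 from 0.06 to -0.11, and leaving out 1 library turned ITGA5, at 0.00, negative in 3 of 9 fits (lowest -0.02). Dropping the fold limit gave, between OIM and control, 1051 genes higher and 802 lower, 5 members higher, 1 other integrin lower, 6 ligands higher and 8 lower, and 5 linkers higher and 3 lower. It gave 4620 genes higher, 4583 lower and 17 linkers lower between bFGF and OIM, and 4709 genes higher, 4881 lower, 7 linkers higher and 16 lower between bFGF and control. Library totals alone gave 3733 genes higher and 1694 lower between bFGF and OIM and 3931 and 1841 between bFGF and control, and lowered the members called lower than control to 3. By coding length and by no length scaling, the ITGA1 share of the collagen-binding class was 51.4% and 49.0% in control, 53.0% and 50.6% in OIM and 36.6% and 35.8% with bFGF. The ITGA2 share was 1.63% and 1.58%, 1.42% and 1.38%, and 41.7% and 41.5%, and the ITGA11 share 44.8% and 47.4%, 43.1% and 45.7%, and 13.5% and 14.6%. A fit with the replicate number as a block called 195 genes higher and 114 lower between OIM and control, 2413 and 2504 between bFGF and OIM, and 2572 and 2713 between bFGF and control, with 4 members higher and 5 lower in both bFGF comparisons. The circular RNAs had too few counts to compare.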

Other observations

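Of the 5 genes whose profiles lay nearest to that of ITGA2, ESM1 (34184255 to 34193877) and EMB (30121072 to 30170495) are on chromosome 16, as is ITGA2 (32336240 to 32440311). This was seen after the genes had been named and was not tested. EMB, the gene of the membrane glycoprotein embigin, was 0.849, 1.17 and 0.613 CPM in OIM and 23.3, 23.0 and 22.0 CPM with bFGF. ITGA1, which lies beside ITGA2, was lower with bFGF.

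OIM replicate 2 was on the bFGF side of both other OIM libraries for 9 of the 10 members. For OIM replicate 1 this was so for 1 member, and for OIM replicate 3 for 0. Over the 4939 genes called between bFGF and OIM the shares were 19.1%, 64.5% and 16.3% for OIM replicates 1, 2 and 3.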
